A study of Mus musculus with 8 samples.

Results

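The antioxidant enzymes described here are 10 genes chosen by symbol for their part in removing superoxide and peroxides: the superoxide dismutases Sod1 and Sod2, catalase (Cat), the glutathione peroxidases Gpx1 and Gpx4, the peroxiredoxins Prdx1, Prdx2, Prdx3 and Prdx5, and thioredoxin (Txn1). They are 10 of the 54749 genes to which the deposited transcripts belong, and all 10 passed the filter on low counts that left 21902 genes for testing. RNA was sequenced from sorted long-term hematopoietic stem cells (LT-HSCs) of bone marrow, the cells that rebuild the blood system over a long time. The mice were 4 asrij floxed mice (libraries numbered 1, 3, 4 and 5) and 4 asrij KO mice (libraries numbered 2, 3, 4 and 5), 1 library for each mouse, with an age of 6 months in the labels. asrij is the mouse gene Ociad1. The floxed mice carry homozygous floxed asrij and the KO mice lack the gene in the whole body, so cells around the LT-HSCs lack it too. The study's methods give the sort for sequencing as LSK CD150+ CD48+ and use mice of both sexes.

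Superoxide leaks from the respiratory chain and is made on purpose by NADPH oxidases. Superoxide dismutases turn it into hydrogen peroxide, which catalase, glutathione peroxidases and peroxiredoxins then reduce to water. Glutathione peroxidases draw on glutathione, peroxiredoxins are reduced again by thioredoxin, and both chains are fed by NADPH. In the marrow, HSCs are known to lose quiescence when reactive oxygen species rise, and maturing red cells carry large amounts of catalase, Gpx1 and Prdx2.

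Library totals ranged from 56661356 to 120858975 transcript counts, which gave 23412829 to 44874882 gene counts. Ociad1 (chromosome 5, GRCm38) was read at 31.3 to 66.9 CPM (counts relative to the library size scaled by the TMM factors of edgeR) in the floxed libraries and at 11.7 to 19.7 CPM in the KO libraries, a log2 fold change of -1.58 (SE 0.27, edgeR adjusted p = 0.0249), so that each KO library kept a part of the signal and stood below each floxed library. The adjusted p of Ociad1 was under 0.05 in 4 of 8 fits that left out 1 library, and the log2 fold change without floxed 3 was -1.29 (adjusted p = 0.00403). The markers of mature blood cells were high for a stem cell sort. The 15 erythroid markers found summed to 28370.8 to 72000.5 CPM in floxed and 124112.6 to 296620.7 CPM in KO libraries, a gap that reached the smallest p that 4 against 4 libraries allow (exact two-sided permutation p = 0.0286, 0.0762 adjusted over 8 marker lists). The 9 neutrophil markers summed to 15720.3 to 49057.7 CPM in floxed and 23523.7 to 29930.3 CPM in KO libraries (exact permutation p = 0.143). The 6 megakaryocyte markers (66.5 to 131.9 CPM in floxed and 220.7 to 264.2 CPM in KO libraries) and the 4 B cell markers (171.9 to 264.9 and 279.0 to 334.5 CPM) did not overlap between the genotypes either, with the same exact permutation p of 0.0286 (0.0762 adjusted). Of the HSC markers, Kit stood at 46.8 to 60.2 CPM in the 8 libraries, whereas Slamf1, the gene of CD150, stood at 0.881 to 4.39 CPM and Procr at 0.142 to 0.962 CPM. The 8 HSC markers summed to 81.6 to 88.2 CPM in floxed and 77.4 to 88.2 CPM in KO libraries (exact permutation p = 0.314). In bulk RNA, more cells of a type and more RNA in each cell cannot be told apart. Floxed library 3 stood apart. Its 11 erythroid markers other than globins summed to 6983.7 CPM, among the KO libraries at 6762.0 to 7051.8 CPM and above the other floxed libraries at 2249.8 to 2363.1 CPM, and its neutrophil sum was the lowest of the 8. Values without this library are given beside the genes of which it changes the call or moves the value most. The libraries numbered 4 and 5 also differed from those numbered 1 to 3 in both genotypes, and within-number values are given for the same reason.

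All 10 antioxidant genes had a log2 fold change (KO over floxed) above 0, from 0.01 for Prdx5 to 1.47 for Prdx2, with a median of 0.5. The sign did not hold in every fit for those near 0. Sod2 and Prdx5 were below 0 on library totals without TMM, and Prdx5 also without floxed 3. Txn1 was below 0 in limma-voom, in fits that took the library numbers into account, and without floxed 5, KO 2 or KO 3. Among all genes tested, 49.6% were above 0 and the median was -0.006. Only Gpx4 passed the edgeR test at an adjusted p under 0.05, and it was higher in KO. This is 1 of 10, where 1.22% of all genes were called higher and 1.75% lower. At an unadjusted p under 0.05, Gpx1, Gpx4, Prdx2 and Prdx3 were higher, 4 of 10 against 9.63% of all genes, and 0 were lower against 12.1%. Each KO library stood above each floxed library for Gpx1 and Gpx4, 2 of 10, where 7.1% of all genes did so and 7.66% did the opposite. None of the 10 passed the study's thresholds, which add a log2 fold change beyond 1.5 and which 0.452% of all genes passed as higher and 0.74% as lower. The order of the libraries for each gene is shown in the plot of CPM by library.

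**Figure D1:**
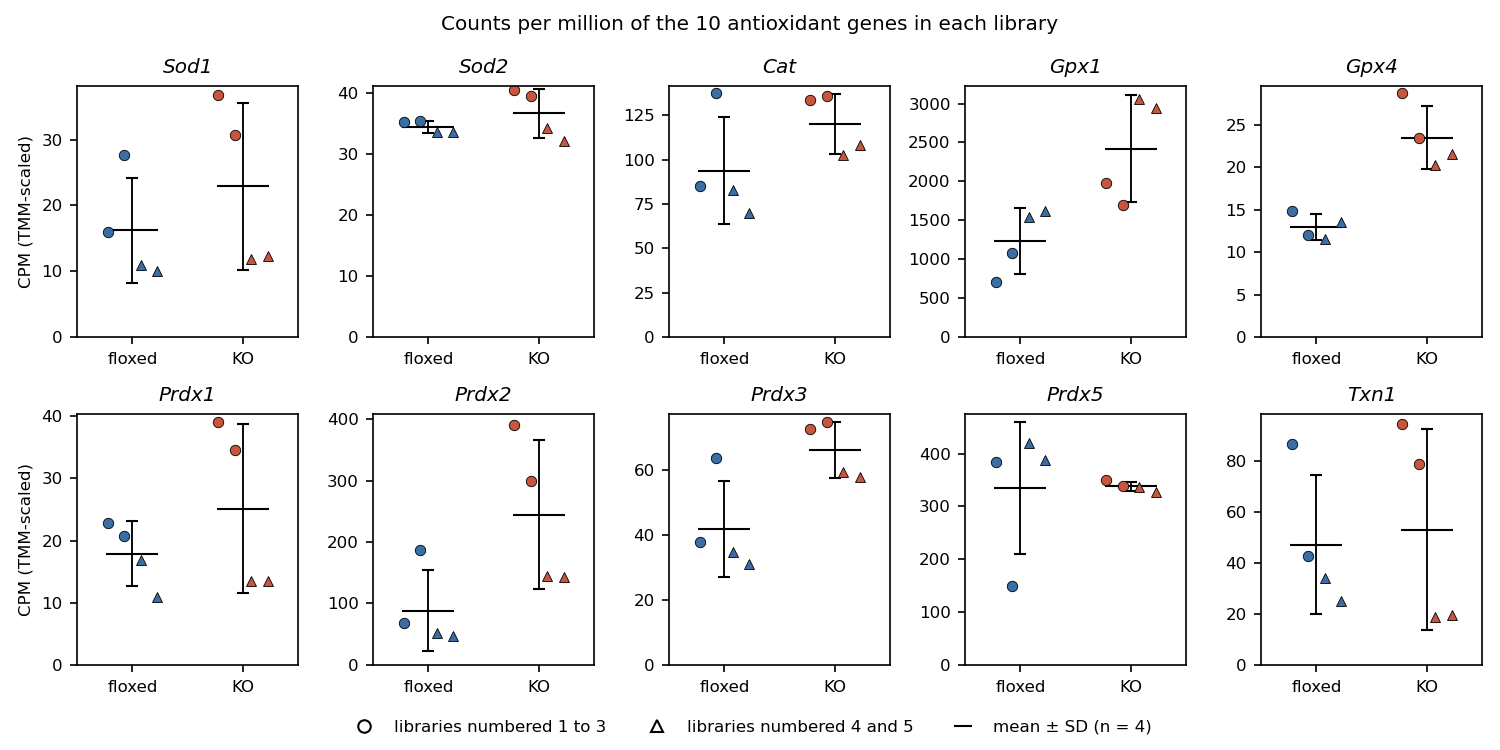
CPM of each of the 10 genes (linear axes that start at 0) in the 4 floxed (blue) and 4 KO (red) libraries. Circles are libraries numbered 1 to 3, triangles those numbered 4 and 5, and bars give the mean ± SD of 4 libraries. Gpx1 and Gpx4 are the only panels in which all KO points lie above all floxed points, and in Sod1, Prdx1 and Txn1 the circles and triangles separate more than the genotypes do.

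On counts of the genes alone, the superoxide dismutases did not differ beyond the spread of the libraries. The result for Sod1 changed when the counts of a processed copy were added, as described further on. Sod1 (ENSMUSG00000022982, chr16:90220754-90226329, plus strand, GRCm38), the copper and zinc enzyme of the cytosol, was read at 16.0, 27.6, 11.0 and 10.1 CPM in floxed libraries 1, 3, 4 and 5 and at 36.7, 30.7, 11.8 and 12.3 CPM in KO libraries 2, 3, 4 and 5. The low values are those of libraries 4 and 5 of both genotypes, and the groups overlap. Its log2 fold change was 0.50 (SE 0.44, edgeR adjusted p = 0.56), and 0.90 (adjusted p = 0.204) without floxed 3. Sod2 (ENSMUSG00000006818, chr17:13006846-13040063, plus strand), the manganese enzyme of mitochondria, was the steadiest of the 10 in floxed libraries at 35.3, 35.4, 33.7 and 33.6 CPM, a mean of 34.5 ± 0.977 CPM (SD, n = 4). In KO libraries it was read at 40.6, 39.6, 34.3 and 32.2 CPM, a mean of 36.7 ± 4.08 CPM. Its log2 fold change was 0.09 (SE 0.14, adjusted p = 0.758), and -0.09 on library totals without TMM, a scaling that shifted the median of all genes to -0.196.

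Catalase, which breaks down hydrogen peroxide in peroxisomes, tracked floxed library 3. Cat (ENSMUSG00000027187, chr2:103453849-103485160, minus strand) was read at 85.1, 137.8, 82.7 and 69.8 CPM in floxed libraries 1, 3, 4 and 5 and at 133.7, 135.7, 102.6 and 108.4 CPM in KO libraries 2, 3, 4 and 5. Floxed library 3 is the highest of all 8, and the other floxed libraries lie below each KO library. The log2 fold change was 0.36 (SE 0.22, edgeR adjusted p = 0.396) with all libraries and 0.61 (adjusted p = 0.024) without floxed 3, a fit in which 8.9% of all genes were called higher and 8.64% lower.

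The glutathione peroxidases, both selenoproteins, were the 2 members whose groups did not overlap on counts of the gene alone. Gpx1 (ENSMUSG00000063856, chr9:108338903-108340343, plus strand), the main peroxidase of the cytosol, was read at 702.6, 1076.0, 1540.7 and 1617.7 CPM in floxed libraries 1, 3, 4 and 5. In KO libraries 2, 3, 4 and 5 it was read at 1975.1, 1698.3, 3062.8 and 2944.9 CPM. Each KO library is above each floxed library, but the lowest KO value, 1698.3 CPM, is close to the highest floxed value, 1617.7 CPM. The means were 1234.2 ± 427.7 and 2420.3 ± 684.9 CPM, a log2 fold change of 0.97 (SE 0.33, edgeR adjusted p = 0.123). Within the library numbers, the difference in log2(CPM + 1) was 1.07 in numbers 1 to 3 and 0.93 in numbers 4 and 5. With a term for numbers 4 and 5 in the fit the adjusted p was 0.00878, and with DESeq2 it was 0.0274. Those fits called 8.88% and 5.12% of all genes higher. With the replicate number as a block, on the 6 libraries numbered 3 to 5, the adjusted p was 0.199. It was 0.12 with limma-voom, 0.127 on library totals, and 0.103 to 0.303 in the 8 fits that left out 1 library.

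Gpx4 (ENSMUSG00000075706, chr10:80047166-80056439, plus strand), which reduces lipid peroxides within membranes and is known as the enzyme that holds back ferroptosis, was read at 14.9, 12.0, 11.6 and 13.5 CPM in floxed libraries 1, 3, 4 and 5. The KO libraries 2, 3, 4 and 5 gave 28.7, 23.5, 20.3 and 21.6 CPM. The groups do not overlap, and floxed library 3 lies among the other floxed libraries. The means were 13.0 ± 1.54 and 23.5 ± 3.72 CPM, a 1.81-fold difference (log2 fold change 0.85, SE 0.17, edgeR adjusted p = 0.0338). The difference in log2(CPM + 1) was 0.91 in numbers 1 to 3 and 0.70 in numbers 4 and 5. The call is close to the threshold. With the replicate number as a block, on the 6 libraries numbered 3 to 5, the log2 fold change was 0.84 and the adjusted p 0.122. On leaving out 1 library at a time the log2 fold change stayed between 0.76 and 0.95, and the adjusted p was under 0.05 in 1 of 8 fits, that without floxed 3, and between 0.075 and 0.105 in the others. On library totals without TMM it was 0.67 with an adjusted p of 0.0932. Gpx4 had 5014 counts over the 8 libraries, the fewest of the 10 genes, and a processed copy of it carried 52515, as described further on.

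The peroxiredoxins, thiol peroxidases that also relay peroxide signals, ranged from no difference to the largest of the 10. Prdx2 (ENSMUSG00000005161, chr8:84969587-84974834, plus strand), an abundant protein of red cells, was read at 68.8, 186.7, 51.3 and 47.2 CPM in floxed libraries 1, 3, 4 and 5 and at 390.2, 299.4, 144.9 and 143.8 CPM in KO libraries 2, 3, 4 and 5. Floxed 3 lies above KO libraries 4 and 5, and the other floxed libraries lie below all KO libraries. The log2 fold change was 1.47 (SE 0.50, edgeR adjusted p = 0.132), a 2.76-fold difference of the fitted means. It was 2.15 (adjusted p = 0.00824) without floxed 3, 1.49 (adjusted p = 0.00799) with a term for numbers 4 and 5, and 1.49 (adjusted p = 0.021) with DESeq2. Those fits called 8.9%, 8.88% and 5.12% of all genes higher. The adjusted p was 0.116 with the replicate block, 0.0985 with limma-voom and 0.217 on library totals. Of 8 fits that left out 1 library, 1 had an adjusted p under 0.05, and the highest was 0.303. The within-number differences in log2(CPM + 1) were alike, 1.58 in numbers 1 to 3 and 1.53 in numbers 4 and 5. Rnaseh2a overlaps Prdx2 by 130 bases, and its count is 9.76% of that of Prdx2.

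Prdx3 (ENSMUSG00000024997, chr19:60864051-60874556, minus strand), the peroxiredoxin of mitochondria, was read at 37.7, 63.5, 34.8 and 30.9 CPM in floxed libraries 1, 3, 4 and 5. In KO libraries 2, 3, 4 and 5 it was read at 72.4, 74.8, 59.4 and 57.9 CPM. Floxed 3 again lies above KO libraries 4 and 5. The log2 fold change was 0.66 (SE 0.23, edgeR adjusted p = 0.14), and 0.95 (adjusted p = 0.00337) without floxed 3. Floxed 3 had the highest sum of erythroid markers other than globins among the floxed libraries. It was the highest floxed library for Cat, Prdx2, Prdx3, Sod1 and, narrowly, Sod2, but not for Gpx1, Gpx4, Prdx1, Prdx5 or Txn1. For Gpx1 it stood at 1076.0 CPM, below floxed 4 and 5 at 1540.7 and 1617.7 CPM. The part of erythroid RNA in these values was not tested.

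Prdx1 (ENSMUSG00000028691, chr4:116685544-116700822, plus strand), a cytosolic peroxiredoxin, was read at 22.9, 20.7, 16.8 and 11.0 CPM in floxed libraries 1, 3, 4 and 5. Its KO values in libraries 2, 3, 4 and 5 were 39.0, 34.6, 13.5 and 13.5 CPM. KO libraries 2 and 3 are above all floxed libraries and KO libraries 4 and 5 are among them, with a within-number difference in log2(CPM + 1) of 0.73 in numbers 1 to 3 and -0.01 in numbers 4 and 5. For Prdx1 the log2 fold change was 0.49 (SE 0.39, edgeR adjusted p = 0.504).

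Prdx5 (ENSMUSG00000024953, chr19:6906697-6910106, minus strand), found in mitochondria, peroxisomes and cytosol, was nearly constant over the KO libraries at 349.3, 339.0, 337.5 and 327.6 CPM. The floxed libraries gave 383.4, 149.8, 420.6 and 387.4 CPM, in the order 1, 3, 4 and 5. Floxed 3 is here the lowest of all 8 libraries, and the other floxed libraries are above each KO library. For Prdx5 the log2 fold change was 0.01 (SE 0.29, edgeR adjusted p = 0.985), and -0.22 (adjusted p = 0.207) without floxed 3. Trmt112 overlaps the gene by 409 bases, with a count that is 8.5% of that of Prdx5.

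Txn1 (ENSMUSG00000028367, chr4:57943373-57956411, minus strand), the small protein that reduces peroxiredoxins, was read at 86.7, 42.7, 34.0 and 25.1 CPM in floxed libraries 1, 3, 4 and 5 and at 94.4, 78.7, 18.8 and 19.6 CPM in KO libraries 2, 3, 4 and 5. The KO group holds both the highest and the lowest values. Within numbers 1 to 3 the difference in log2(CPM + 1) was 0.49 and within numbers 4 and 5 it was -0.58. The log2 fold change was 0.17 (SE 0.58, edgeR adjusted p = 0.901), and -0.09 with a term for numbers 4 and 5 and with the replicate block.

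Processed pseudogenes are copies of a spliced mRNA that were written back into the genome and so lack the introns of their parent. Of the 10 genes, 5 have such copies that share 50-base stretches with them and carry counts: Sod1, Gpx4, Prdx1, Prdx2 and Txn1. Cat, Gpx1 and Prdx3 share no 50-base stretch with another gene. The main copies are Gm8566 for Sod1 (chr6:67205619-67206083, plus strand, 97.8% identity over 465 bases), Gpx4-ps2 for Gpx4 (chr10:45875305-45876086, plus strand, 99.7% over 762 bases) and Gm21399 for Prdx1 (chr8:129252998-129253594, plus strand, 98.3% over 597 bases). Tdpx-ps1 is the copy of Prdx2 (chr1:99790429-99791025, minus strand, 96.3% over 597 bases) and Txn-ps1 that of Txn1 (chr1:44463923-44464231, minus strand, 96.1% over 308 bases). The stretches below, from GENCODE M21 transcripts on GRCm38, are shown because they are interrupted by an intron in the parent gene and run on without a gap in the copy. The last 20 bases of 1 exon are in lower case and the first 20 of the next exon in capitals, all within the coding sequence, 5′ to 3′.
Sod1, exons 1 and 2: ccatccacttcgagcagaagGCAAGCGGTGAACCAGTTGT
Gpx4, exons 3 and 4: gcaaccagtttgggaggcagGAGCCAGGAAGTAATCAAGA
Prdx1, exons 4 and 5: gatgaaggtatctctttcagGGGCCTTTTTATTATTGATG
Prdx2, exons 4 and 5: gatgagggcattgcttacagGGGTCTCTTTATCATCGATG

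In Sod1 the exons of this stretch are 1850 bases apart (chr16:90220910-90220929 and chr16:90222780-90222799), and Gm8566 holds its 40 bases as 1 run at chr6:67205671-67205710. In Gpx4 the intron has 123 bases (chr10:80054825-80054844 and chr10:80054968-80054987), and the run in Gpx4-ps2 is at chr10:45875556-45875595. In Prdx1 the intron has 711 bases (chr4:116692986-116693005 and chr4:116693717-116693736), and the run in Gm21399 is at chr8:129253361-129253400. In Prdx2 it has 152 bases (chr8:84971390-84971409 and chr8:84971562-84971581), and the run in Tdpx-ps1 is at chr1:99790626-99790665 on the minus strand. Such identical runs were found for 5 of 6 coding junctions of Gpx4, 2 of 4 of Sod1, 2 of 4 of Prdx1, 1 of 4 of Prdx2 and 0 of 4 of Txn1. On the genome, a read across such a junction matches the copy without a gap and its parent only across the intron. On spliced transcripts, which the study's methods name as the reference of the alignment, it matches both without a gap. What these stretches contribute to the counts was not tested.

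In each of the 5 genes the main copy carried more counts than the gene, whereas the second copies of Gpx4 (AC122253.3, 139 counts) and Prdx1 (Gm7204, 3261 counts) carried fewer. Over the 8 libraries Gpx4-ps2 had 52515 counts, 10.474 times those of Gpx4, and Gm8566 had 32779 against 5877 for Sod1. Txn-ps1 had 60516 counts against 14777 for Txn1, Gm21399 had 20969 against 6249 for Prdx1, and Tdpx-ps1 had 154453 against 49711 for Prdx2. The ratio of copy to gene separated the libraries by number in both genotypes. For Gpx4 it was 7.49, 7.88, 19.84 and 16.48 in floxed libraries 1, 3, 4 and 5 and 7.4, 7.33, 15.14 and 14.54 in KO libraries 2, 3, 4 and 5. For Txn1 it was 2.43 to 3.0 in libraries 1 to 3 and 9.1 to 13.53 in libraries 4 and 5, and for Sod1 2.93 to 4.65 and 9.12 to 14.75. For Prdx1 the ranges were 2.47 to 3.41 and 6.53 to 8.63, and for Prdx2 1.82 to 2.34 and 4.78 to 7.74. In none of these 5 genes do the libraries 1 to 3 and 4 to 5 overlap. What sets the library numbers apart is not given in the sources used here.

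**Figure D2:**
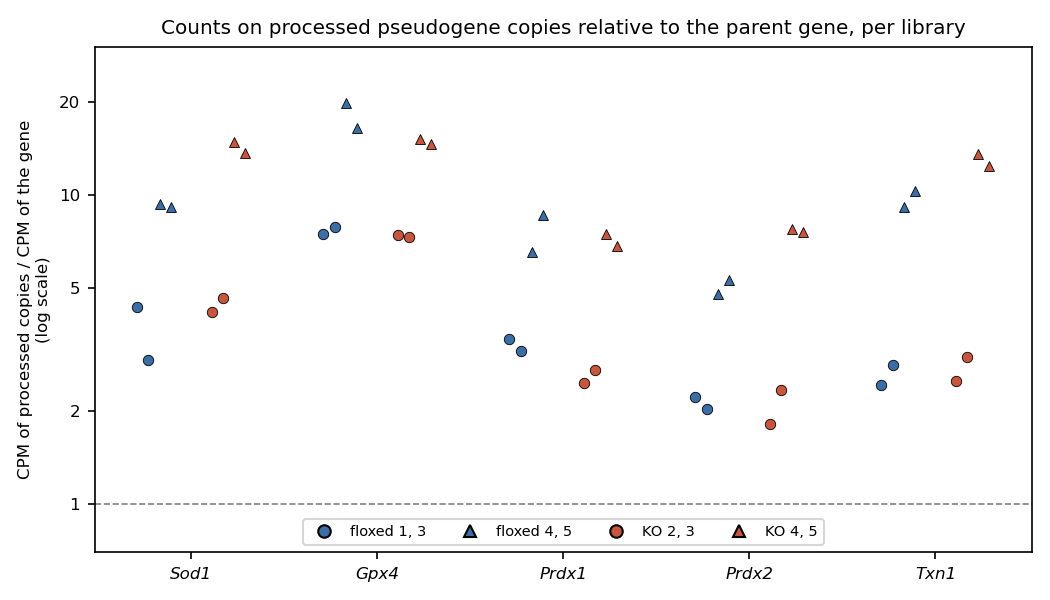
CPM of the processed copies divided by the CPM of the parent gene (log axis) for the 5 genes with copies, in floxed (blue) and KO (red) libraries. Circles are libraries numbered 1 to 3 and triangles those numbered 4 and 5. All points lie above 1, and in each gene the triangles lie above the circles in both genotypes, as for Gpx4 with 14.54 to 19.84 against 7.33 to 7.88.

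Adding the counts of the copies to their genes, an alternative chosen after the data had been seen, changed which genes passed the test. Sod1 with Gm8566 was 102.6 ± 12.2 CPM in floxed and 182.7 ± 7.19 CPM in KO libraries (SD, n = 4), a log2 fold change of 0.83 (SE 0.15, edgeR adjusted p = 0.0263), and the groups did not overlap. Prdx2 with Tdpx-ps1 was 345.9 ± 151.4 and 1149.2 ± 123.4 CPM, a log2 fold change of 1.73 (SE 0.30, adjusted p = 0.0249), again without overlap. Gpx4 with its 2 copies was 177.7 ± 71.1 and 274.7 ± 67.6 CPM, a log2 fold change of 0.63 (SE 0.31, adjusted p = 0.269), so Gpx4 was called on the gene alone and not with its copies. Prdx1 and Txn1 with their copies had log2 fold changes of 0.21 (adjusted p = 0.505) and 0.12 (adjusted p = 0.811). In this fit 2 of the 10 genes were called higher, Sod1 and Prdx2, against 1.22% of all genes, and 0 lower against 1.75%. With the replicate block as well, neither was called, at 0.75 (adjusted p = 0.143) for Sod1 and 1.68 (adjusted p = 0.123) for Prdx2.

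The copies tested by themselves showed the same division. They make up most of the sums above, so this is not an independent result. Tdpx-ps1 was read at 153.8, 380.1, 245.2 and 250.4 CPM in floxed libraries 1, 3, 4 and 5 and at 708.9, 699.7, 1121.0 and 1089.0 CPM in KO libraries 2, 3, 4 and 5 (log2 fold change 1.81, SE 0.31, edgeR adjusted p = 0.0247). Gm8566 was read at 69.7, 80.7, 102.9 and 92.3 CPM in floxed and at 153.2, 142.8, 174.7 and 168.3 CPM in KO libraries (log2 fold change 0.89, SE 0.17, adjusted p = 0.0302). In both, each KO library is above each floxed library. With the replicate block neither copy was called, at 1.75 (adjusted p = 0.118) for Tdpx-ps1 and 0.84 (adjusted p = 0.126) for Gm8566. Gpx4-ps2 had a log2 fold change of 0.61 (adjusted p = 0.327), Gm21399 of 0.14 (adjusted p = 0.72) and Txn-ps1 of 0.11 (adjusted p = 0.846). Which of the counts on a copy come from RNA of the parent was not tested.

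**Figure D3:**
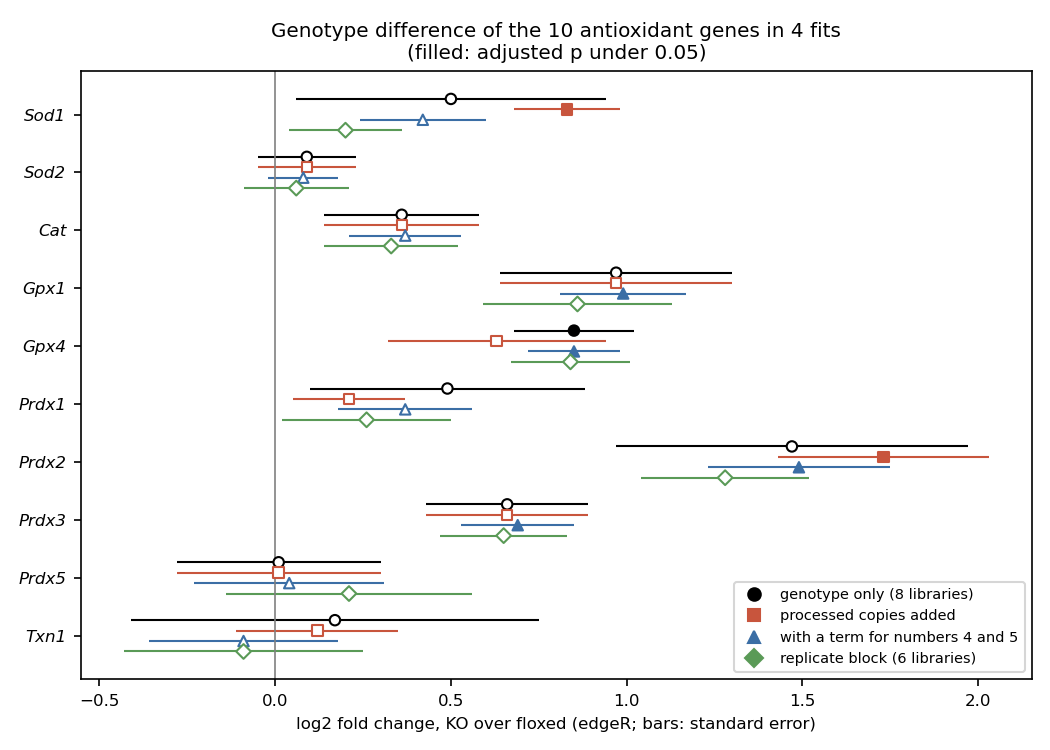
Log2 fold change (KO over floxed, with standard error bars) of the 10 genes in 4 edgeR fits. The fits are genotype alone on 8 libraries, the same with processed copies added, with a term for libraries numbered 4 and 5, and with a replicate block on 6 libraries; filled symbols have an adjusted p under 0.05. Prdx2 has the largest value in each fit (1.28 to 1.73), Gpx4 is filled with genotype alone and with the term, and no symbol of the block is filled.

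The number of the 10 genes called depended on how the library numbers and floxed 3 entered the fit. With a term for numbers 4 and 5, Gpx1, Gpx4, Prdx2 and Prdx3 were called higher, 4 of 10 against 8.88% of all genes, and 0 lower against 9.65%. Without floxed 3, Cat, Gpx4, Prdx2 and Prdx3 were called higher, against 8.9% of all genes. With the replicate block none were called, where 0.13% of all genes were called higher and 0.0926% lower. In DESeq2 Gpx1, Gpx4 and Prdx2 were called higher, against 5.12% of all genes, and 0 lower, against 6.05%. On library totals none were called, against 0.621% higher and 3.52% lower. With the term and without floxed 3 together, an alternative chosen after the data had been seen, Sod1, Cat, Gpx1, Gpx4, Prdx2 and Prdx3 were called higher and Prdx5 lower, in a fit that called 21.5% of all genes higher and 20.3% lower. Of the 3 numbers that both genotypes share, KO was above floxed in log2(CPM + 1) in all 3 for Sod1, Gpx1, Gpx4, Prdx2 and Prdx3, in 2 for Sod2, Cat and Prdx1, and in 1 for Prdx5 and Txn1.

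The levels of the genes were set side by side as CPM per kb of exon of the counted transcript. In floxed libraries Gpx1 led with 1151.3 ± 398.9 CPM per kb (SD, n = 4), followed by Prdx5 at 265.7 ± 98.9, Prdx2 at 59.0 ± 44.1, Txn1 at 44.8 ± 26.0 and Cat at 35.9 ± 11.5. Prdx3 at 28.2 (from 20.9 to 43.0), Sod1 at 25.2 ± 12.5, Gpx4 at 14.8 ± 1.75, Sod2 at 8.51 ± 0.241 and Prdx1 at 7.78 ± 2.27 CPM per kb came after. Neighbors in this order overlapped except Gpx1 and Prdx5, and Gpx4 and Sod2. In KO libraries the first 8 places were the same, with Gpx1 at 2257.7 ± 638.9, Prdx5 at 268.1 ± 7.04 and Prdx2 at 163.0 ± 81.0 CPM per kb, and Prdx1 at 11.0 ± 5.91 came before Sod2 at 9.04 ± 1.01. Since the deposited counts take in introns, the order was also made per kb of genomic span, where Prdx3 took the fourth place and Txn1 the fifth in floxed libraries, and Sod2 was last. The places of Sod2 and Gpx4 by span depend on the transcript chosen. Their counted transcripts are not annotated as protein coding and span 32068 and 9274 bases. The protein-coding transcripts with the most counts span 12318 bases for Sod2 and 2952 for Gpx4. They carry 91.42% and 99.68% of the counts of the counted transcripts. The order on these shorter spans was not made. The places of Sod1, Gpx4, Prdx1, Prdx2 and Txn1 leave out the counts on their copies.

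The 10 genes summed to 1453.4, 1752.1, 2237.2 and 2246.4 CPM in floxed libraries 1, 3, 4 and 5 and to 3160.2, 2754.4, 3805.8 and 3681.8 CPM in KO libraries 2, 3, 4 and 5. Gpx1 alone made up 48.3% to 72.0% of the sum in floxed and 61.7% to 80.5% in KO libraries. Without Gpx1 the sums were 628.7 to 750.8 CPM in floxed and 736.9 to 1185.0 CPM in KO libraries, with an overlap between KO libraries 4 and 5 and floxed library 1. These sums leave out the counts on the processed copies of Sod1, Gpx4, Prdx1, Prdx2 and Txn1. The copy held 64.5% to 88.6% of the summed CPM of Prdx2 and its copy. For Gpx4 and its copies the share was 88.0% to 95.2%. The shares of Gpx1 and the overlap therefore hold for counts of the genes alone. The sum is a description, with no test.

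Around these enzymes, 50 companion genes in 7 lists were examined for the rest of the redox system, and all 50 were tested. Of them, 2 rose in KO, Glrx5 and Hmox1, and 0 fell at an adjusted p under 0.05, where 1.22% of all genes were called higher and 1.75% lower. Without floxed 3, 8 were higher and 11 lower, against 8.9% and 8.64% of all genes. With all libraries the companion genes had 26 log2 fold changes above 0, 24 below 0 and a median of 0.07. Hmox1, the enzyme that breaks down heme and a textbook target of Nfe2l2, was read at 42.2, 78.2, 59.9 and 56.5 CPM in floxed libraries 1, 3, 4 and 5 and at 159.5, 151.4, 184.6 and 182.6 CPM in KO libraries 2, 3, 4 and 5. Each KO library is above each floxed library, with a log2 fold change of 1.52 (SE 0.20, edgeR adjusted p = 0.00935), which held in 8 of 8 fits that left out 1 library. Glrx5, a mitochondrial glutaredoxin needed for iron-sulfur clusters and heme synthesis, was read at 73.0, 158.5, 122.6 and 122.5 CPM in floxed and at 384.0, 318.3, 616.8 and 573.1 CPM in KO libraries. Its log2 fold change was 1.99 (SE 0.30, adjusted p = 0.0176), which held in 4 of 8 such fits. With the replicate block neither gene was called, with log2 fold changes of 1.44 (adjusted p = 0.0805) for Hmox1 and 1.88 (adjusted p = 0.10) for Glrx5.

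In the other lists no gene passed the test. Of the 7 other dismutases and peroxidases, 5 were above 0 and 2 below, and the largest value was that of Gpx8, a peroxidase of the endoplasmic reticulum, at 0.62 (SE 0.81) on a level of 0.323 and 0.519 CPM. In the thioredoxin system, 4 of 6 were above 0, led by Txnrd2, the thioredoxin reductase of mitochondria, at 1.10 (SE 0.35, edgeR adjusted p = 0.108). Floxed 3 was again apart for Txnrd2, and without it the log2 fold change was 1.67 (adjusted p = 0.000174). Srxn1 had the lowest adjusted p of this list, at 0.90 (SE 0.21, adjusted p = 0.0538). Each KO library lay above each floxed library for Srxn1, as for 7.1% of all genes. Srxn1 and Txnrd2 were called higher with DESeq2 and with a term for numbers 4 and 5, but not with the replicate block. The first 2 of these fits called 5.12% and 8.88% of all genes higher. Of the 5 NADPH suppliers, 4 were below 0, and G6pdx, the first enzyme of the pentose phosphate pathway, was at -0.66 (SE 0.27, adjusted p = 0.196), and at -0.89 (adjusted p = 0.00149) without floxed 3. Nnt had the lowest adjusted p of this list, at -0.63 (SE 0.15, adjusted p = 0.0506). Each KO library lay below each floxed library for Nnt, as for 7.66% of all genes. Nnt was called lower with DESeq2 and with the term, but not with the replicate block. The first 2 of these fits called 6.05% and 9.65% of all genes lower. All 6 genes of the NADPH oxidase and xanthine oxidase list, sources of superoxide and peroxide, were below 0 with a median of -0.48, and none were called. Cybb, the catalytic subunit of the phagocyte oxidase, was at 1339.6 CPM in floxed and 717.7 CPM in KO libraries (log2 fold change -0.90, SE 0.24, adjusted p = 0.0717). Without floxed 3, Cybb was at -1.04 (adjusted p = 0.00492). Neutrophils are the main source of this oxidase, and the neutrophil markers also summed lower in KO than in 3 of the 4 floxed libraries, with 0 of 9 called. Floxed 3 had the lowest neutrophil sum of the 8 libraries, and its Cybb was 901.8 CPM. Each KO library was lower than that for Cybb, at 615.5 to 834.5 CPM. The part of neutrophils in the value was not tested. The 5 genes of selenoprotein synthesis, on which Gpx1 and Gpx4 depend, had a median of 0.0, and the largest value was that of Sephs2 at -0.30 (SE 0.27, adjusted p = 0.559).

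**Figure D4:**
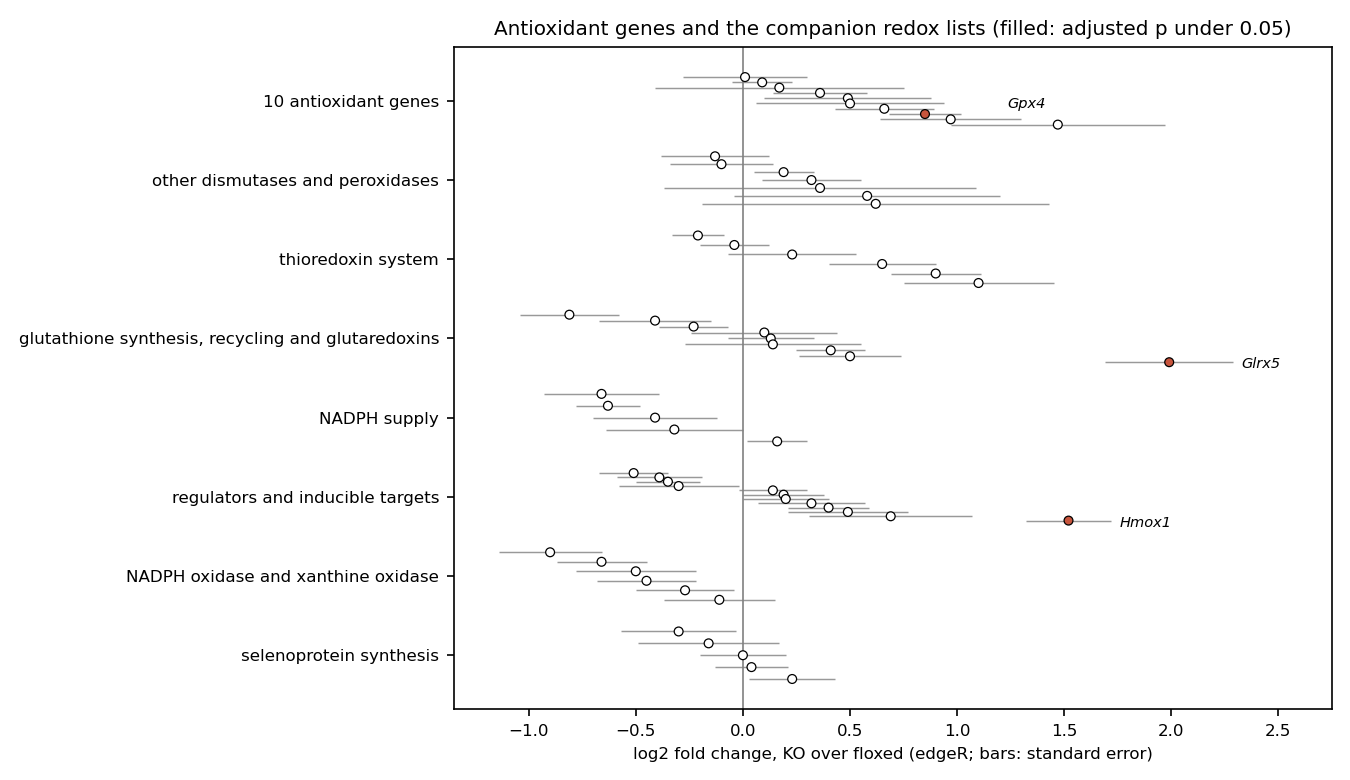
Log2 fold change (KO over floxed, with standard error bars) of the 10 antioxidant genes and of the 50 companion genes by list, 1 point for each gene. Filled points have an edgeR adjusted p under 0.05. In this fit the 10 antioxidant genes all lie above 0, the 6 oxidase genes all lie below 0, and only Gpx4, Glrx5 and Hmox1 are filled. In other fits Sod2 and Prdx5 fall below 0 on library totals, and Prdx5 also without floxed 3. Txn1 does so in limma-voom, in fits with the library numbers, and without floxed 5, KO 2 or KO 3.

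The antioxidant response element, the site of Nfe2l2 with a small Maf protein, was searched for as the letters TGACNNNGC on both strands of the RefSeq promoters (GRCm38.p6, 250 bases before to 50 after the start of a gene). The promoters of 2 of the 10 genes held a match, those of Sod1 and Prdx1, as did 8 of the 39 companion genes with a promoter, against 14.0% of all 27025 genes. The matches are printed because these are the regulatory letters usually tied to antioxidant genes, with the element in capitals on the strand of the gene, where it reads as its reverse complement.
Sod1, chr16:90220696-90220724: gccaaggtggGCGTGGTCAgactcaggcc
Prdx1, chr4:116685456-116685484: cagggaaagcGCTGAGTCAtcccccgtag

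Gpx4 has no match in its promoters, nor has Nqo1 of the list of regulators and inducible targets. Hmox1 is among the companion genes without a promoter in the set searched. Elements further from the start were not searched, so a missing match does not show that a gene lacks one. A relation between matches and calls was not tested. A match is a description of letters and shows no binding.

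The genes whose pattern over the 8 libraries was most like that of Gpx4 were Qdpr (Pearson r = 0.982), Ddrgk1 (r = 0.971) and Dynll2 (r = 0.968) on log2(CPM + 1), over 8 libraries that share genotype and library numbers, leaving out neighbors on the chromosome. Qdpr, which recycles tetrahydrobiopterin, was at 14.3 ± 1.35 CPM in floxed and 20.5 ± 1.71 CPM in KO libraries, a log2 fold change of 0.52 (SE 0.15, edgeR adjusted p = 0.0798). Ddrgk1 and Dynll2 had log2 fold changes of 0.55 (adjusted p = 0.0593) and 0.55 (adjusted p = 0.0501), so none of these 3 passed the test. These correlations are a description.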

How the data were processed

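Per the study's methods, total RNA of LT-HSCs from 4 mice of each genotype was made into NEBNext Ultra libraries and sequenced. The submitters' processing notes name FastQC, Trim Galore, Bowtie2 and the builds GRCm38 and mm10. The authors deposited raw, whole-number counts for 138930 Ensembl transcripts in each of 8 files, with 0 unused sample columns. The counter and its use of strand are not given in the sources used here. The study's methods name reference transcripts for the alignment. In the files, however, 1109 of 1112 groups of transcripts with 1 span and different exons had equal counts, and in 9845 of 9845 cases a transcript inside an intron of another gene had no more counts than that gene's transcript in any of the 8 libraries (both for totals of at least 100), so the counts were read as covering genomic spans with introns. In GENCODE M21 (GRCm38), 138789 identifiers were found, and the count of a gene is that of its transcript with the highest total. Counts were filtered with filterByExpr, scaled by TMM and tested with edgeR 4.0.16 (R 4.3.3), glmQLFit and glmQLFTest on genotype alone, with Benjamini-Hochberg adjustment over 21902 genes. limma 3.58.1 (voom) and DESeq2 1.42.0 were alternatives, as were other scalings, filters, gene counts, a replicate block and each library left out. Fits were tested on simulated data. Marker sums were compared by exact permutation over 70 labelings. Depth was 23412829 to 44874882 gene counts. The spread between libraries holds both counting error and differences between mice.

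The members and lists were chosen with earlier results of these data known. The genes named are the 10 members, Ociad1, companion genes with an adjusted p under 0.05, otherwise the one with the largest change per list, markers, and the 3 genes most like Gpx4. Nnt and Srxn1 were added because, of the companion genes not called, their adjusted p was closest to 0.05. Processed copies were found as genes that share 50-base stretches with a spliced member, and were examined after the data had been seen. Numbers 3, 4 and 5 occur in both genotypes in the labels, and the deviations of same-numbered libraries correlated at 0.374, 0.394 and 0.579, although they come from different mice and other pairs within numbers 1 to 3 or within 4 and 5 correlated at 0.346 to 0.603. Blocked values are given where they change a call.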

Additional observations from a re-analysis of the deposited data

Results flagged for a closer look

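Floxed library 3 lay far from the other floxed libraries (Dixon's 95% criterion for 4 samples, on log2(CPM + 1)) in all 5 cases found among the 66 groups of 4 libraries examined, where chance gives about 3.3. Prdx5 was 7.237 in floxed 3 against 8.587 to 8.72 in the other floxed libraries. Txnrd2 was 5.452 against 3.918 to 4.076, and G6pdx was 6.768 against 8.006 to 8.149. The summed neutrophil markers were 13.94 against 15.393 to 15.582, and the summed plasma cell markers 7.073 against 8.167 to 8.332. The library is thus low for Prdx5, G6pdx and both marker sums and high for Txnrd2. The cause was not tested.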

How the results depend on the processing

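Of the 10 antioxidant genes, the number called higher was 1 with edgeR on genotype alone. It was 0 on library totals, 0 with the replicate block, 0 at the study's thresholds, 3 with DESeq2, 4 with a term for numbers 4 and 5, 4 at an unadjusted p under 0.05, 0 to 4 on leaving out each library (4 without floxed 3, 0 in the other 7), and, in alternatives chosen after the data had been seen, 2 with processed copies added, 0 with copies added and the replicate block, and 6 with a term for numbers 4 and 5 and floxed 3 left out. That last fit, which called 21.5% of all genes higher and 20.3% lower, also called 1 lower, Prdx5. None of the 8 fits on genotype alone that left out 1 library called any lower (0 to 0). Of the 50 companion genes, those called higher were 4 with DESeq2, 0 with the replicate block, 6 with the term, 16 with the term and without floxed 3, and 1 to 8 on leaving out each library (8 without floxed 3). Those called lower were 1 with RLE size factors, upper quartile scaling, a filter of 1 CPM or haemoglobin genes left out (Nnt each time), 2 on library totals, 5 with DESeq2 and with the term, 18 with the term and without floxed 3, and 0 to 11 on leaving out each library (11 without floxed 3). Over all genes, the shares called higher and lower were 1.22% and 1.75% on genotype alone and 5.12% and 6.05% with DESeq2. They were 0.13% and 0.0926% with the replicate block, 0.621% and 3.52% on library totals, and 8.88% and 9.65% with the term. Without floxed 3 they were 8.9% and 8.64%, and 21.5% and 20.3% with the term as well. At an unadjusted p under 0.05 they were 9.63% and 12.1%. Library totals moved the median of all genes to -0.196, and the calls over all genes from 268 higher and 383 lower to 136 and 772. Below 0 were Sod2 at -0.09 and Prdx5 at -0.15 on library totals, Prdx5 at -0.22 without floxed 3 (-0.22 to 0.14 on leaving out each library) and at -0.22 with the term as well, and Txn1 at -0.05 with limma-voom, -0.09 with the replicate block, -0.09 with the term, -0.35 with the term and without floxed 3, and -0.25 to 0.67 on leaving out each library. Ociad1 was -1.75 to -1.29 on leaving out each library and -1.77 on library totals. The block was run on the 10 genes, their copies, Ociad1 and the companion genes named, and of the calls there it left that of Ociad1 and lost those of Gpx4, Hmox1, Glrx5, Tdpx-ps1 and Gm8566. The causes were not tested. Gpx4 has 5014 and Sod1 5877 counts over the 8 libraries, the lowest of the 10 genes.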
